A study of Mus musculus with 6 samples.

Results

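The genes described here encode the subunits, assembly chaperones, activators and inhibitor of the proteasome, and were chosen by name as all genes whose symbol begins with Psma, Psmb, Psmc, Psmd, Psme, Psmf or Psmg followed by a digit. The rule took 50 of the 23698 gene rows, none of them a row that joins several names. It also takes Psmc3ip, a recombination factor that is not part of the proteasome and is counted among these genes below. The study profiled translation and RNA isoforms in mouse skin cells, and the libraries used here came from SCCc, a cultured squamous cell carcinoma model grown from primary keratinocytes of newborn back skin at passage 10 to 15. All 3 libraries carried the same genotype, oncogenic HrasG12V together with deletion of Tgfbr2 (Tgfbr2 fl/fl KO). They were 1 ribosome profiling library, which samples RNA fragments protected by ribosomes (footprints), and 2 RNA-seq libraries. Wild-type keratinocytes and epidermal stem cells were not analysed here, so every value below describes SCCc and none is a comparison between conditions.

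The proteasome degrades proteins marked with ubiquitin. Its barrel-shaped core is built from rings of alpha subunits (Psma) and beta subunits (Psmb), some of which cut peptide bonds, and the regulatory particle that caps it (Psmc and Psmd) binds, unfolds and feeds in substrates. Dedicated chaperones (Psmg and some Psmd proteins) assemble both parts and are not kept in the finished particle.

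On exons, the ribosome profiling library held 3549555 footprints, and RNA-seq replicates 1 and 2 held 10707930 and 14003713 counts. The proteasome genes took 0.891% of the footprints and 0.534% and 0.531% of the RNA-seq counts of replicates 1 and 2. Footprint density is given as RPKM (counts divided by the counted length in kilobases and scaled to the exon total of the library) over the coding sequence (CDS), and RNA level as RPKM over exons. Translational efficiency (TE) is the log2 ratio of footprint density to the mean RNA level, set to 0 at the median of the 9863 genes that passed a filter that required at least 1 footprint, a mean normalised count above 25 and, in each RNA-seq library, an RPKM above 1. Of the 50 proteasome genes 46 passed. With 1 ribosome profiling library, TE has no replicate check and no test. The SD given with it is over the RNA-seq replicates, and intervals are exact 95% Poisson intervals. For a count of 0 the upper limit used throughout is 3 counts in the library. Intervals and this limit cover counting error only.

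The keratinocyte label was checked against marker genes. All 8 keratinocyte markers exceeded 1 RPKM in both RNA-seq libraries, with a summed level of 14265 and 16355 RPKM and Krt5 as the most abundant. The 6 fibroblast markers summed to 8.82 and 14.5 RPKM, led by Col3a1, and Col1a1, Col1a2, Col3a1, Pdgfrb and Thy1 had 0 footprints on the CDS. The 6 immune markers summed to 3.08 and 9.17 RPKM, mostly from Lyz2, and all 6 had 0 footprints on the CDS. The 3 endothelial markers summed to 0.505 and 0.591 RPKM and the 4 melanocyte markers to 5.38 and 5.47 RPKM, led by Pmel. In such bulk libraries fewer cells of a type and less RNA per cell cannot be told apart.

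Proteasome genes lay mostly above the median gene in TE. Of the 46 genes that passed, 43 had a TE above 0 and 19 (41.3%) had a TE above 1, that is more than 2-fold, where 20.8% of all 9863 genes did. Only Psme2b and Psme4 had a TE below -1, against 21.1% of all genes. Neither call held in every setting. Psme4 was at -0.89 without RNA-seq replicate 1 and Psme2b at -0.96 without replicate 2, and with RNA-seq counted over the CDS they were at -0.78 and -0.96. The count above 1 depended on division by length and on which genes entered. Without division by length it was 33 of 46 (71.7%), against 19.2% of all genes. It was 12 of 35 (34.3%, against 19.7% of all 8431 genes) among genes with at least 80% of their annotated CDS counted, to whose median TE was then set. When at least 100 counts were required in every library it was 6 of 37 (16.2%), below the 18.8% of all 4829 genes, and the median TE of the 37 was 0.45. That filter also moved the median gene to which TE is set and put Psma2, Psmb2, Psmb5, Psmc3, Psmd7, Psmd12 and Psmd14 below 1.

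All 14 constitutive core subunits passed and were densely covered by ribosomes. Their footprint density ran from 262 to 754 RPKM with a median of 379.6, a 2.88-fold range. The highest was Psmb3, a beta subunit, with 754 RPKM of footprints (interval 693 to 819) and 41.2 and 43.4 RPKM of RNA in replicates 1 and 2. Next came Psmb7, a catalytic subunit, with 539 RPKM of footprints and 271 and 261 RPKM of RNA. The alpha subunit Psma6 had 529 RPKM of footprints and 219.9 and 216 RPKM of RNA. The RNA level of Psmb3 was thus far below that of Psmb7 and Psma6, although its footprint density was the highest. Both values of Psmb3 came from short counted regions, 210 nt of CDS (34.1% of that annotated) and 273 nt of exons. Psmb7 and Psma6 were counted over 100% and 97.0% of their annotated CDS. The lowest densities belonged to the catalytic subunit Psmb5 with 262 RPKM, and to the alpha subunits Psma2 with 286 and Psma1 with 294 RPKM. The intervals of Psma2 (262 to 311) and Psma1 (274 to 314) overlapped.

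**Figure D1:**
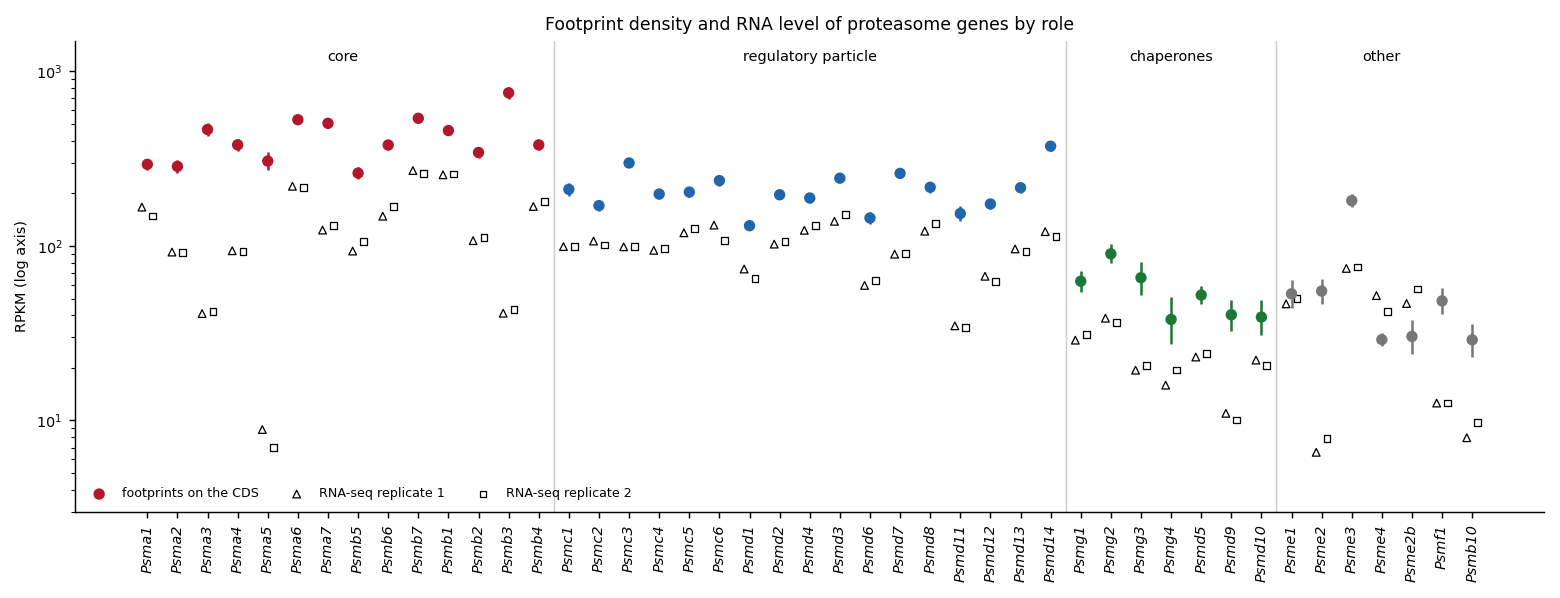
Footprint density on the CDS (filled circles, with exact 95% Poisson intervals as vertical lines) and RNA level on exons in RNA-seq replicates 1 (triangles) and 2 (squares), in RPKM on a log axis, for proteasome genes ordered by role. Core subunits sit between 262 and 754 RPKM of footprints and the named chaperones between 37.9 and 90.2.

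In TE the core had a median of 1.17 (SD 0.08 over the RNA-seq replicates, n = 2), and 8 of 14 subunits (57.1%) exceeded 1, against 20.8% of all genes. When each library had to hold 100 counts or more, which left out Psma5, 4 of 13 did, against 18.8%. Without that demand, but with at least 80% of the CDS counted, 2 of 8 did, against 19.7%. Without division by length 12 of 14 did, against 19.2%. The highest TE was that of Psma5, at 4.93 (SD 0.23), from 307 RPKM of footprints and only 8.88 and 7.01 RPKM of RNA. Psmb3 followed with 3.81 (SD 0.06) and Psma3 with 3.14 (SD 0.04), which was 2.17 with RNA-seq counted over the CDS. The other subunits above 1 were Psma4 at 1.68, Psma7 at 1.65, Psmb2 at 1.31, Psma2 at 1.29 and Psmb5 at 1.05. Psmb5 was at 0.95 without RNA-seq replicate 1, Psmb6 was at 1.02 instead of 0.91 without replicate 2, and Psma7 at 0.95 with RNA-seq over the CDS. The lowest were Psmb1 at 0.49, Psma1 at 0.55 and Psmb7 at 0.68, so no core subunit lay below the median gene.

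The subunits with the highest TE were also those counted over the smallest part of their CDS. The counted length was set against the union of CDS annotated in GENCODE M21, which may differ from the annotation the authors counted over. It covered 33.9% of the CDS of Psma5, 34.1% of Psmb3 and 41.0% of Psma3, and also less than 80% in Psma4 (52.7%), Psma7 (70.4%) and Psma2 (75.8%). Outside the core it was below 80% in Psmd11 (55.3%), Psmc1 (58.5%), Psmd2 (60.6%), Psmd10 (76.8%) and Psme1 (79.9%). Of the 9 core and regulatory particle subunits below 80%, 7 (77.8%) had a TE above 1, against 41.0% of 1021 genes below 80%, and of the 22 others, 6 (27.3%) did, against 18.4% of 8431 genes. Across the 31 subunits TE and the counted share had a Spearman correlation of -0.54, a description over genes that share the same 3 libraries, while over 9452 genes with both values it was -0.04.

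**Figure D2:**
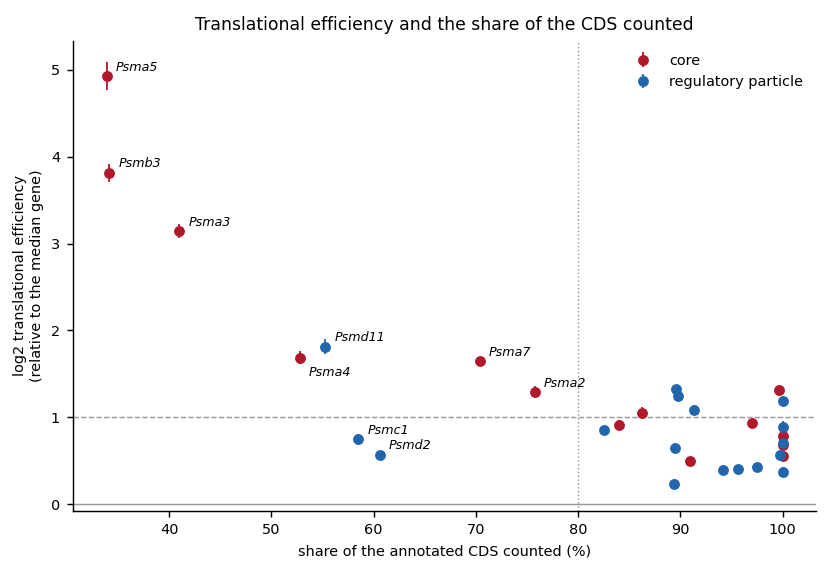
TE on a log2 scale against the share of the annotated CDS that was counted, for 14 core subunits (red) and 17 regulatory particle subunits (blue), with bars of 1 counting error. The dotted line marks 80% and the dashed line a TE of 1, and Psma5, Psmb3 and Psma3 stand at 33.9%, 34.1% and 41.0% with the highest TE.

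Sequence shared with other genes was measured, after these values were seen, as the share of 28-nt windows of the annotated CDS that also occur in a transcript of another gene. It was 92.4% for Psma3, 90.4% for Psma5 and 85.9% for Psmb3, whose windows recurred in 3, 3 and 10 other genes. The counted share and the shared windows did not always go together. Psma7 had 70.4% of its CDS counted and 0 shared windows, and Psmb5 had 86.2% counted with 86.7% of windows shared. Values of the subunits that share sequence are uncertain, because reads can be divided among copies, and the part of this in their TE was not tested.

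All 17 subunits of the regulatory particle under the naming rule passed, with footprint densities from 131 to 373 RPKM and a median of 204. The subunits Adrm1 and Shfm1 lie outside the rule and enter no value given for the regulatory particle. They had 194 and 1063 RPKM of footprints. Among the 17 the highest was Psmd14, the deubiquitinating subunit of the lid, with 373 RPKM of footprints and 121 and 114 RPKM of RNA. Psmc3, an ATPase of the base, had 299 RPKM of footprints and 98.9 and 99.7 RPKM of RNA, and the lid subunit Psmd7 had 261 with 89.7 and 90.2 RPKM of RNA. The lowest were Psmd1, a scaffold of the base, at 131 RPKM, and the lid subunits Psmd6 at 145 and Psmd11 at 153 RPKM. The 6 ATPases were even in RNA level, from 95.8 to 122 RPKM, a 1.28-fold range, and less so in footprint density, from 170 to 299 RPKM, a 1.75-fold range.

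The median TE of these 17 regulatory particle subunits was 0.71, and 5 of the 17 (29.4%) exceeded 1, against 20.8% of all genes. These were Psmd11 at 1.81 (SD 0.02), Psmd14 at 1.33 (SD 0.05), Psmc3 at 1.25 (SD 0.02), Psmd7 at 1.19 (SD 0.02) and Psmd12 at 1.08 (SD 0.06). With RNA-seq counted over the CDS, Psmd6 was at 1.07 instead of 0.89. The lowest were Psmd4, a ubiquitin receptor, at 0.23, Psmc2 at 0.37 and Psmc5 at 0.39. With 100 counts or more required per library only Psmd11 exceeded 1 (1.42), or 5.88% of the 17 against 18.8% of all genes, and Psmd4 (-0.17) and Psmc2 (-0.02) lay below the median gene. Without division by length 14 of 17 (82.4%) exceeded 1, against 19.2% of all genes. In the main setting the lid had a median of 0.99 over 8 subunits and the base 0.57 over 9. Adrm1 and Shfm1, outside the naming rule, enter neither median and had a TE of 2.84 and 0.23.

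Core subunits carried more footprints per kilobase than regulatory particle subunits. The difference of the median log2 footprint density was 0.90, or 1.86-fold. Each of the 14 core subunits lay above the median of the regulatory particle, and 9 lay above Psmd14, its highest subunit under the naming rule. Only 2 regulatory particle subunits under the naming rule, Psmd14 and Psmc3, exceeded the lowest core subunit, Psmb5. Psmd7 at 260.6 RPKM (interval 244 to 278) could not be told apart from Psmb5 at 261.6 (interval 242 to 283). Shfm1, a subunit outside the rule, had 1063 RPKM of footprints and is not in this comparison. The difference was 0.85 among the 8 core and 14 regulatory particle subunits with at least 80% of the CDS counted. It turned to -0.20 when counts were not divided by length, since core CDS are shorter, with a median counted length of 600.5 nt against 1167 nt. Footprint density and annotated CDS length had a Spearman correlation of -0.78 over the 31 subunits, and TE and counted CDS length of -0.44 over all 9863 genes. The part of CDS length in the difference was not tested.

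The RNA level differed less over all subunits, and more once partly counted genes were left out. The median was 118 RPKM in the core and 99.4 in the regulatory particle, a difference of 0.25 in median log2 RNA level. This difference was 0.47 with RNA-seq counted over the CDS, and it turned to -0.48 when counts were not divided by length. Among subunits with at least 80% of the CDS counted the medians were 166 and 102 RPKM, a difference of 0.71. With TE set to the median of the genes counted to that share, the median TE was then 0.90 for the core and 0.73 for the regulatory particle. With RNA-seq counted over the CDS and all subunits kept, they were 1.06 and 0.83. With both changes together, a choice made after seeing the data that leaves 8 core subunits, both medians were 0.85.

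Footprints were more even than RNA over the full lists of core and regulatory particle, but not in the base. In the core the SD of log2 footprint density was 0.43 and that of log2 RNA level 1.34. In the regulatory particle these were 0.38 and 0.51, with 0.32 and 0.26 in the base, 0.27 and 0.15 in its ATPases and 0.45 and 0.68 in the lid. Leaving out the subunits below 80% changed this to 0.38 and 0.52 in the core and to 0.40 and 0.39 in the regulatory particle, where the order of both SDs reversed. Across the 22 remaining subunits footprint density and RNA level had a Spearman correlation of 0.73, against 0.35 over all 31 and 0.79 over the 9863 genes.

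Other complexes were set beside the proteasome. In the CCT chaperonin, which folds actin and tubulin, the SD was 0.18 for log2 footprint density and 0.78 for log2 RNA level over 8 subunits. In the COP9 signalosome, which resembles the lid in subunit makeup, it was 0.53 and 1.50 over 8 subunits, or 0.52 and 0.76 over the 6 with at least 80% of the CDS counted. In the translation initiation factor eIF3 it was 0.41 and 0.58 over 12 subunits, all counted over at least 80%, with Eif3j not included. The median TE was 0.57 for CCT, 0.42 for COP9 and 0.03 for eIF3. A smaller SD of footprints than of RNA was thus also present in these complexes, and no test of a difference among complexes was made.

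**Figure D3:**
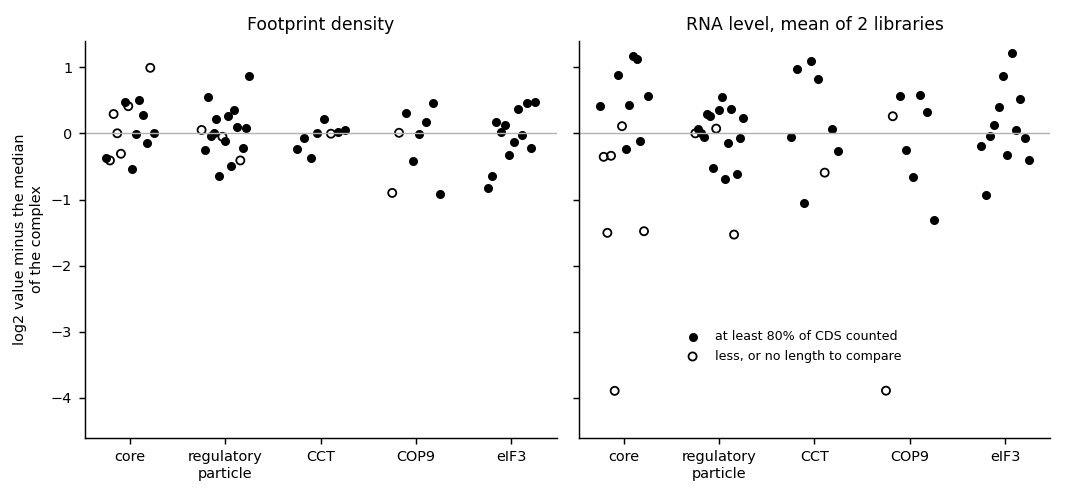
Log2 footprint density (left) and log2 mean RNA level (right) of each subunit minus the median of its complex, with filled points for genes with at least 80% of the CDS counted and open points for the others. In the core the SD is 0.43 for footprints and 1.34 for RNA, and the lowest RNA point is Psma5.

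The catalytic beta subunits exist in constitutive forms (Psmb6, Psmb7 and Psmb5) and in forms of the immunoproteasome, which interferon induces (Psmb9, Psmb10 and Psmb8 in the same order). Their start codon contexts in the GENCODE M21 transcripts of GRCm38 are shown because the genes of each pair occupy the same site of the core and differed widely in footprints. Capitals mark the position 3 bases before the start codon, the start codon and the base after it.
Psmb6, chr11:70525367-70527858, plus strand: cagaggAagATGGcggccgcctta
Psmb9, chr17:34181987-34187764, minus strand: tctgctGagATGCtgcgggcagga
Psmb7, chr2:38588036-38644087, minus strand: cttggcAagATGGcggctgtgtcg
Psmb10, chr8:105935735-105938444, minus strand: tcctgcGagATGCtgaagcaggca
Psmb5, chr14:54614119-54618022, minus strand: ttgctaAacATGGcgctggctagc
Psmb8, chr17:34197721-34201454, plus strand: caagtgGtcATGGcgttactggat
The coordinates are those of the genes, and each stretch spans the end of the 5′UTR and the start of the CDS. All 6 had a purine before the start codon at that position, as did 87.3% of 9183 genes, and all but Psmb9 and Psmb10 also had the G after it, as did 47.5%.

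Immunoproteasome subunits were far below their constitutive counterparts on both scales. Psmb7 had 539 RPKM of footprints and Psmb10 had 29.0 (interval 23.1 to 35.9), an 18.6-fold difference (interval 15.0 to 23.3 from the counts of Psmb10 alone). The RNA level of Psmb10 was 7.97 and 9.78 RPKM, and that of Psmb7 was 34.0-fold and 26.7-fold higher in replicates 1 and 2. Psmb10 had a TE of 1.37 (SD 0.22). Psmb8 had 1 footprint and 4 and 3.98 RNA-seq counts, which gave a ratio of Psmb5 to Psmb8 of 769 in footprints with an interval of 138 to 30369 from the counts of Psmb8 alone, and it did not pass the filter.

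Psmb9 had RNA-seq counts but no footprint. It was counted over 97.2% of its CDS and had 33.9 and 46.9 RNA-seq counts, or 3.93 and 4.15 RPKM, and 0 footprints, which allows up to 1.29 RPKM at 3 counts. Set against this limit, Psmb6, with 379 RPKM of footprints, was at least 295-fold higher, where its RNA level was 37.7-fold and 40.7-fold higher than that of Psmb9 in the 2 replicates. At the efficiency of the median gene the RNA level of Psmb9 would correspond to 11.9 footprints. RNA-seq counts without a CDS footprint were also found in other genes, such as Col3a1 with 232 and 428 counts in replicates 1 and 2. Psmb9 failed the filter because it had no footprint and its mean normalised count was 15.2, so it is not in any median above.

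**Figure D4:**
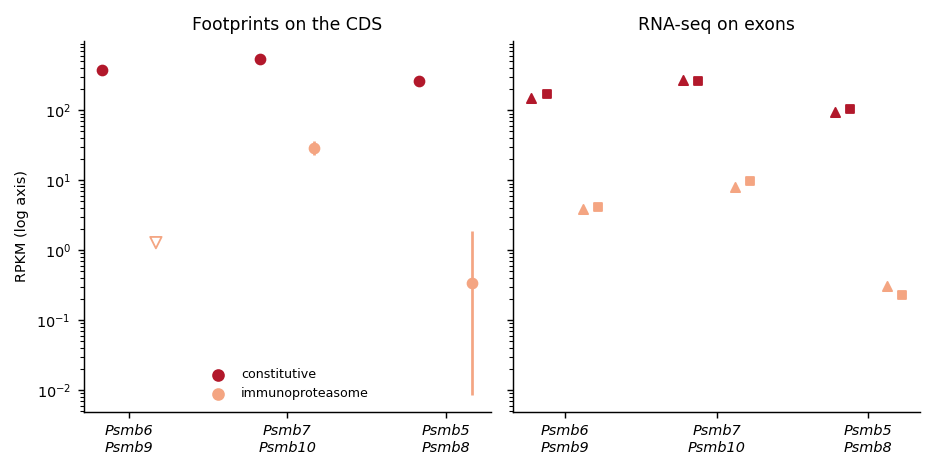
Footprint density (left, with exact 95% Poisson intervals) and RNA level in replicates 1 (triangles) and 2 (squares) (right) of constitutive (dark) and immunoproteasome (light) catalytic subunits, in RPKM on a log axis. The open triangle is the upper limit of 3 counts (1.29 RPKM) for Psmb9, which had 0 footprints, and Psmb10 stands at 29.0 RPKM of footprints against 539 for Psmb7.

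The 7 named assembly chaperones all passed and lay below every core and regulatory particle subunit in footprint density. Among those that build the core, Psmg2 had 90.2 RPKM of footprints with 38.6 and 36.6 RPKM of RNA, and Psmg1, its partner, had 62.8 with 28.9 and 31.01. Psmg3 had 65.8 RPKM of footprints with 19.4 and 20.7 RPKM of RNA, and Psmg4, with which it pairs, had 37.9 with 15.9 and 19.5. The intervals of Psmg1 (54.3 to 72.3) and Psmg3 (52.6 to 81.3) overlapped. Of the chaperones of the base, Psmd5 had 52.3 RPKM of footprints with 23.1 and 24.3 RPKM of RNA, Psmd9 had 40.4 with 10.99 and 10.1, and Psmd10 had 39.1 with 22.2 and 20.8. The median TE was 0.84 for the 4 core chaperones and 0.80 for the 3 base chaperones, and Psmd9 at 1.60 and Psmg3 at 1.37 exceeded 1. The TE of Psmd9 was 0.59 when RNA-seq was counted over the CDS. Pomp, a core maturation factor outside the naming rule, had 361 RPKM of footprints with 172 and 159 RPKM of RNA, within the range of the core.

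Alternative caps of the core differed widely. Psme3, the nuclear activator, had 182 RPKM of footprints with 74.4 and 75.9 RPKM of RNA and a TE of 0.93. Psme1, a subunit of the interferon-inducible activator, had 53.2 with 46.6 and 49.9 and a TE of -0.20. Psme4, a large single-chain activator, had 29.1 with 52.0 and 42.1 and a TE of -1.04 (SD 0.20), which was -0.89 without RNA-seq replicate 1 and -0.78 with RNA-seq counted over the CDS. Psmf1, an inhibitor of the core, had 48.5 RPKM of footprints with 12.6 and 12.6 RPKM of RNA and a TE of 1.60, which was 0.50 with RNA-seq over the CDS.

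Psme2, the partner of Psme1, could not be measured apart from Psme2b. In the transcripts compared both CDS were 717 nt long and 99.3% identical, with 5 mismatches, while Psme2 was counted over the 741 nt of its union of CDS and Psme2b over 717 nt. In these transcripts 80.3% of the 28-nt windows of each occurred in the other. A stretch of 30 bases of each CDS, from position 297 to 326 counted from the first base of the start codon, shows how little separates them, with the differing base in capitals.
Psme2, chr14:55587441-55591113, minus strand: gcttctggccttgctCgctttggttaagcc
Psme2b, chr11:48945354-48946190, minus strand: gcttctggccttgctTgctttggttaagcc
Psme2 had 55.2 RPKM of footprints with 6.57 and 7.90 RPKM of RNA, and a TE of 2.59. Psme2b had 30.3 RPKM of footprints with 46.8 and 56.6 RPKM of RNA, and a TE of -1.11, or -0.96 without RNA-seq replicate 2. The genes thus stood on opposite sides of the median gene, and summed over both the TE was 0.19.

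The remaining names were expressed little or are proteasome genes by name alone. Psma8, an alpha subunit of the testis, had 0 footprints and 0 counts in both RNA-seq libraries, and Psmb11, a catalytic subunit of the thymus, had 0 footprints, 0 counts in replicate 1 and 1 in replicate 2. Psmc3ip, the recombination factor, had 23.6 RPKM of footprints with 4.61 and 3.73 RPKM of RNA and a TE of 2.16. Among the 46 genes that passed, the RNA-seq replicates differed most in Psma5, where log2 of replicate 2 over replicate 1 was -0.34 from 54.1 and 55.8 counts, in Psmc3ip at -0.31 and in Psme4 at -0.30. Over these genes the difference had an SD of 0.15, against 0.20 over all 9863 genes.

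Of other genes of the ubiquitin-proteasome pathway, 26 were found and all of these passed, while Paaf1 was not found and Ubb only in a row joined with Gm1821. Of the 26, 11 (42.3%) had a TE above 1 and 2 (7.69%) below -1, against 20.8% and 21.1% of all genes. Where each library had to hold 100 counts or more, 6 of 22 (27.3%) were above 1, against 18.8%. With at least 80% of the CDS counted, 8 of 19 (42.1%) were above 1 and 0 below -1, against 19.7% and 20.8% of all 8431 genes. Zfand5, a proteasome-binding protein, had the highest TE at 3.26, from 162 RPKM of footprints and 13.9 and 12.9 RPKM of RNA. Adrm1, a ubiquitin receptor and a subunit outside the naming rule, followed at 2.84, with 23.8% of its CDS counted. The deubiquitinases Usp14 and Uchl5 stood at 2.03 and 1.89, and the proteasome-associated thioredoxin Txnl1 at 1.91. The unfoldase Vcp was at 1.59 and its cofactor Ufd1l at 1.52. Ubqln2, Akirin2, Ddi2 and Rad23b were at 1.26, 1.22, 1.17 and 1.11, with 40.7% of the CDS counted in Ddi2. Nfe2l1, a transcription factor that controls proteasome genes, was at -1.02, and -0.96 without RNA-seq replicate 2. Ngly1, which removes its glycans, lay just below -1 (SD 0.30) from 32 footprints, and at -0.78 without replicate 1. Both thus lay at the limit, and leaving out either replicate left 1 gene below -1. With RNA-seq counted over the CDS 8 of 26 (30.8%) were above 1, against 18.3% of all 9862 genes, and Adrm1 was the highest at 3.44. Zfand5 was then at 0.71, Txnl1 at 0.87 and Rad23b at 0.40. Nfe2l1 was at -0.92, and Ngly1 stayed below -1 at -1.03. The median of the 26 was 0.53, against 0.90 for the 46 proteasome genes.

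Footprints on 5′UTRs were compared with the CDS in genes whose counted 5′UTR spanned 60 nt or more and held 30 footprints or more. In none of the 7 proteasome genes that met this did the 5′UTR density exceed the CDS density, where 24.8% of 1092 genes did. The 2 shares are not alike, because a fixed limit on 5′UTR footprints takes genes of low CDS density only where the 5′UTR is dense. The median CDS density was 201 RPKM over the 46 proteasome genes that passed and 19.1 over the 9863, and 7 genes are few. The 5′UTR density was 29.0% to 58.4% of the CDS density, with a median of 44.3%, against 50.3% over the 1092 genes. Psmd14 had the most, 188 footprints on 312 nt, and its annotated 5′UTR held 1 upstream ATG. Without the limits, Psmb5 and Psmc5 exceeded the CDS density slightly, from 4.03 footprints on 4 nt and 4.71 on 6 nt.

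**Figure D5:**
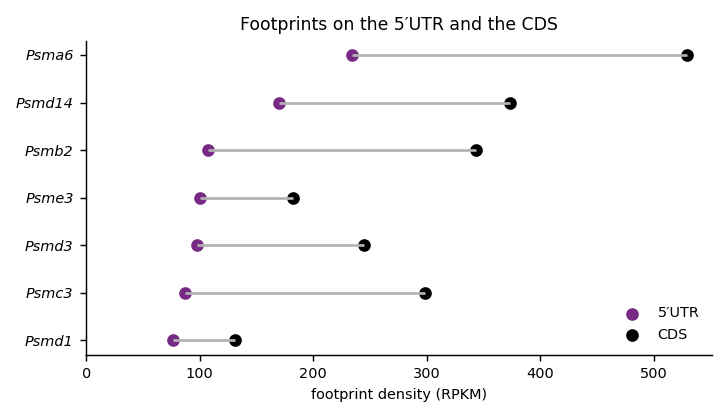
Footprint density in RPKM on the 5′UTR (purple) and the CDS (black) of the 7 proteasome genes whose 5′UTR met both limits, 60 nt and 30 footprints. In each gene the 5′UTR point lies below the CDS point, at 29.0% to 58.4% of it.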

How the data were processed

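The authors trimmed the reads with TrimGalore, used Bowtie2 2.4.1 to discard footprint reads from rRNA, tRNA and mitochondrial transcripts, aligned to GRCm38 with STAR 2.6.1 and counted per gene with Plastid. The deposited values are estimated counts per region, which need not be whole, and RPKM values, which the authors scaled to a total larger than the sum of gene counts. The counted lengths of each region were also deposited by the authors. The annotation release used for counting is not given in the sources used here.

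RPKM was recomputed from the counts, lengths and exon totals with pandas 2.3.3 and numpy 2.4.6. Counts were rounded for the normalised mean and for the size factors of DESeq2 1.42.0 and edgeR 4.0.16. The arithmetic was tested on counts simulated from these data. That does not test partial counting of the CDS, shared sequence or the use of 1 ribosome profiling library. Counts of both RNA-seq libraries differed beyond sampling noise (chi-square 74186 on 9862 degrees of freedom), so they were not merged as copies of 1 library, which says nothing on separate cultures. Whether they came from separate cultures is not given in the sources used here. Gene lists followed the naming rule and textbook roles. Named genes were the extremes of core and regulatory particle, the catalytic subunits, chaperones, activators and inhibitor, genes past 2-fold in TE or below 80% of CDS counted, and those with the largest replicate differences. The members and lists were chosen with earlier results of these data known.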

Additional observations from a re-analysis of the deposited data

Results flagged for a closer look

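Footprints on 3′UTRs entered only the exon totals above, and no CDS or 5′UTR value. They were looked at because they exceeded what a count of 0 allows (3 counts). Over the 50 proteasome genes they summed to 338, or 1.13% of the footprints on the CDS. That share was lower than in the whole library, which held 65279.6 footprints on 3′UTRs and 3198469 on the CDS. Of the 46 that passed, 25 (54.3%) had more than 3, against 32.9% of 9858 genes. A fixed limit of 3 does not allow for level, and the median CDS density was 201 RPKM over the 46 and 19.1 over the 9863. The highest 3′UTR counts were those of Psma6 with 41.2, Psme3 with 37.03 and Psmd11 with 31.1. The median 3′UTR density was 3.86% of the CDS density over the 46 genes, against 1.56% over the 9858. Both medians take in genes with 3 counts or fewer and do not allow for level. The highest ratio among the 46, 52.0% in Psme2b, came from 2.80 footprints on 50 nt.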

How the results depend on the processing

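Values are called moved here when they changed by more than the larger of the SD over the RNA-seq replicates and the counting error, and counts when they changed by more than 1.5-fold. DESeq2 or TMM factors, deposited RPKM and no filter on low values moved none of the results on core, regulatory particle and counts, but a factor per library nearly cancels in TE set to the median gene and in differences between genes, so scaling is hardly tested by this. Leaving out either RNA-seq replicate moved only the count below -1, from 2 to 1 (range 1 to 1), as did a pseudocount of 1 RPKM (1), which also moved the log2 RNA ratios Psmb5 to Psmb8 from 8.53 to 6.31 and Psmb6 to Psmb9 from 5.30 to 4.98. With RNA-seq over the CDS, median TE was 1.06 (core) and 0.83 (regulatory particle), the RNA difference 0.47 and the core difference of SDs -0.84. The count below -1 was then 0, against 19.5% of all genes. The log2 RNA ratios Psmb7 to Psmb10 and Psmb6 to Psmb9 were 4.57 and 5.73. Without length division, median TE was 1.68 and 1.39, and the footprint and RNA differences reversed to -0.20 and -0.48. The differences of SDs were then -1.10 and -0.23. In that setting 33 of 46 genes (71.7%) were above 1 and 0 below -1, against 19.2% and 21.1% of all genes. The log2 RNA ratios were 4.51 (Psmb7 to Psmb10), 7.85 (Psmb5 to Psmb8) and 5.49 (Psmb6 to Psmb9). With at least 100 counts in every library, which dropped Psma5, median TE was 0.66 and 0.31, the RNA difference 0.35 and the core difference of SDs -0.43. Of 37 genes 6 (16.2%) were above 1 and 1 (2.70%) below -1, against 18.8% and 15.7% of all genes. With at least 80% of the CDS counted, median core TE was 0.90, the RNA difference 0.71 and the core difference of SDs -0.15. That of the regulatory particle reversed to 0.014. Of 35 genes 12 (34.3%) were above 1 and 1 (2.86%) below -1, against 19.7% and 20.8% of all genes. With RNA-seq over the CDS in addition, chosen after seeing the data, median TE was 0.85 and 0.85 and the RNA difference 0.86. The differences of SDs were -0.20 and -0.026. Of 35 genes 12 (34.3%) were then above 1 and 0 below -1, against 17.3% and 19.1% of all 8430 genes. Apart from the changes that follow from fewer genes or from lengths, the cause was not tested. Of 520 values of TE for 46 single genes under these alternatives, 146 moved and 4 changed sign, none of them past 2-fold. These were Psmc2 (-0.02) and Psmd4 (-0.17) with at least 100 counts, Psmd10 (from 0.52 to just below 0) with RNA-seq over the CDS, and Psme1 (0.36) without length division. No paired analysis was made because the 3 libraries analysed here all came from SCCc. Depth leaves Psmb8 and Psmb9 with 1 and 0 footprints, counting error in TE was largest in Psmc3ip and Psmg4 among the 46 proteasome genes that passed, and TE rests on 1 ribosome profiling library.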

Other observations

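A purine 3 bases before the start codon was annotated in 46 of the 50 proteasome genes (92.0%) and in 8019 of 9183 genes that passed with an annotated start (87.3%). A purine there together with a G after the start codon was found in 27 proteasome genes (54.0%) and in 47.5% of all genes.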
